A study of Mus musculus with 6 samples.

Results

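The genes described here are 43 components of the transforming growth factor-beta (TGF-beta) and bone morphogenetic protein (BMP) pathways, taken by name from the 24411 gene symbols of a count table of mouse microglia. By role they comprise 7 ligands, 5 genes of ligand latency, 9 receptors, 6 SMAD transducers, 12 inhibitors and corepressors and 4 targets. RNA-seq was made from total RNA of microglia, macrophages that reside in the brain, from C57BL/6J mice aged 8 weeks. Libraries labelled gKO (n = 3) came from mice with a knockout of Mir137, the gene of the microRNA miR-137, and libraries labelled gWT (n = 3) from counterparts without the knockout. The labels name no other allele and no treatment, and do not explain the prefix g or how the cells were purified. The design text speaks of 4 mice without tying them to libraries, so that p-values reflect variation among libraries that could be technical. The comparison asks which transcripts differ in level between microglia of mice with the knockout and of mice without it.

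Library totals ranged from 14603884 to 17652976 expected counts and overlapped between the groups. Genes with a count above 0 numbered 13927, 13832 and 14090 in gKO 1 to 3. The values of gWT 1 to 3, at 15023, 15277 and 15012, were all higher. The cause of this difference, and its part in the fold changes of genes at low level, was not tested. The Mir137 row of the count table held 0 in all 6 libraries, so it could not check the genotype labels. The summed level of 12 microglial markers was 45024 to 52004 CPM (counts scaled by library size with edgeR's TMM factors) and overlapped between the groups, and all 12 were detected. The library gKO 3 stood apart from the other 5: its score on the leading principal component (38.96% of the variance) was 91.5, against -37.7 to -3.45. Across genes, its log2 CPM relative to the mean of the 6 libraries was lower the longer the transcript (Spearman rho -0.50, against -0.04 to 0.30 in the others). Results that rest on gKO 3 are therefore given with and without it; where a pair of values follows the words without gKO 3, the first is the log2 fold change and the second the edgeR adjusted p. Gene coordinates are those of GENCODE M21 on GRCm38.

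TGF-beta is secreted in a latent form, held by its own propeptide and anchored to latent TGF-beta binding proteins in the matrix or, on microglia, to the transmembrane protein Nrros. Once released it binds Tgfbr2, which phosphorylates Tgfbr1, and this kinase activates Smad2 and Smad3, which enter the nucleus with Smad4. BMPs act through Bmpr2 or activin type II receptors and the kinases Acvr1, Acvrl1 and Bmpr1a on Smad1, Smad5 and Smad9, and the Id genes are their classical targets. Microglia need TGF-beta signalling to keep their resting expression profile, and inhibitory SMADs, SMURF ligases and the corepressors Ski, Skil and Tgif1 limit the response.

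Of the 43 genes, 41 had counts high enough to be tested; Inhba and Fst did not. A gene is called here at a Benjamini-Hochberg adjusted p under 0.05 in edgeR's quasi-likelihood test over 13403 genes. Tgif1, a corepressor, rose in gKO and Fstl1, a secreted BMP antagonist, fell; no other gene of the 41 was called. Over all genes tested 0.627% were called, 0.395% as higher and 0.231% as lower. At an unadjusted p under 0.05, 6 of the 41 were higher and 10 lower, where 10.9% of all genes passed, 5.16% as higher and 5.74% as lower. The 3 gKO values lay all above or all below the 3 gWT values in 25 of the 41 (61.0%), 11 higher and 14 lower, against 21.3% of all genes, 10.0% higher and 11.3% lower. The median log2 fold change (gKO over gWT, here and below) was 0.05, with 22 genes above 0 and 19 below, and 0.01 over all genes. Values ran from -2.21 (Bmp6) to 1.35 (Tgif1). The direction differed with the level: of the 21 genes at 50 CPM or more in gWT the median was 0.11 and 15 were above 0, while of the 20 genes under 50 CPM it was -0.68 and 13 were below 0. Over all genes the same classes had medians of 0.03 and -0.01. The 43 genes and the further lists below were chosen with earlier results of these data known. Their shares beside those of all genes are therefore a description and do not show an excess.

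**Figure D1:**
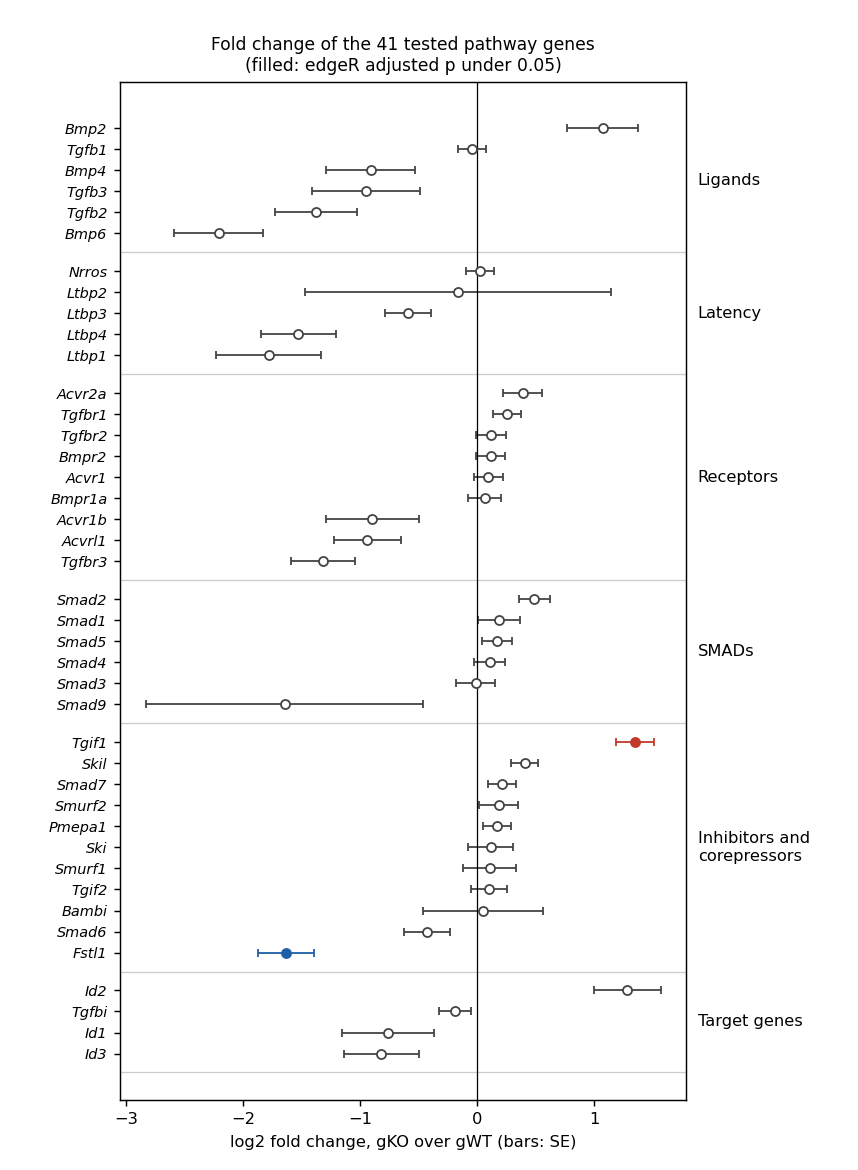
Log2 fold change (gKO over gWT, horizontal axis) of the 41 tested genes with its standard error as a bar, grouped by role. Filled points mark Tgif1 and Fstl1, the genes called. Ligands and latency genes lie mostly to the left (medians -0.93 and -0.59), and the other roles on both sides of 0.

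The mature strand miR-137-3p, from which a match in a target is read, lies at chr3:118433901-118433923 (+) in RefSeq's GRCm38.p6. Its seed, bases 2 to 8, is in capitals.
miR-137-3p: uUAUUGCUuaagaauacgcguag
The 3′ untranslated region (UTR) was that of the longest coding transcript in GENCODE M21. It held the seed's complement AGCAATA in 5 of the 43 genes (11.6%), with 1 match each, and in 10.3% of 12963 tested genes. The median UTR length was 1920 bases in the 43 genes and 1174 in the tested genes, and no comparison at like length was made. These 5 matches are shown on the transcript's strand with the match in capitals and 11 bases on each side. They are places where miR-137-3p could pair through bases 2 to 8, and shorter seed matches were not searched.
Acvr1 chr2:58447136-58447142 (-): aattcgtaatcAGCAATAtcggctgcatc
Acvrl1 chr15:101144919-101144925 (+): gcctgtctttcAGCAATAtgcaaggacca
Bmpr1a chr14:34411681-34411687 (-): cagatttcctaAGCAATActtgtcttttc
Ski chr4:155154835-155154841 (-): gaaaaaccaacAGCAATAagtcattggtg
Smurf2 chr11:106820106-106820112 (-): tgccgaagctgAGCAATAaaatgaatgct
In Ski and Smurf2 the match is followed by an A. None of the 5 genes was called by edgeR or DESeq2, and Acvrl1 alone had an unadjusted p under 0.05 (lower in gKO); their log2 fold changes ran from -0.94 (Acvrl1) to 0.18 (Smurf2), with a median of 0.10 and 4 above 0. The 36 tested genes without a match had a median of 0.01, with 18 above 0. The UTRs of Tgif1 (486 bases) and Fstl1 (2588 bases) held no match; a search of these letters in 1 transcript per gene is a description and says nothing of sites elsewhere.

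Tgfb1 was the most abundant of the ligands. EdgeR called 0 of the 6 tested; with p under 0.05 before adjustment, 1 was higher (Bmp2) and 3 lower (Bmp6, Tgfb2 and Bmp4), and DESeq2 called Bmp2 higher and Bmp6 and Tgfb2 lower. Tgfb1 (chr7:25687002-25705077), the TGF-beta isoform that microglia make and need, stood at 641, 580 and 648 CPM in gKO 1 to 3 and at 618, 640 and 671 CPM in gWT 1 to 3. The groups overlapped, and the means of 623 ± 37.7 and 643 ± 26.6 CPM (SD, n = 3 each) gave a log2 fold change of -0.05 (SE 0.12; edgeR adjusted p = 0.927). Per kilobase of its longest transcript Tgfb1 ranked 2 among the 43 genes in gWT, at a level of 242 CPM per kb in gKO and 250 in gWT. The 5 other tested ligands stood between 1.48 and 2.84 CPM per kb in gWT, and 4 of them were lower in every gKO library than in any gWT library.

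Bmp6, a BMP that endothelial cells make, had 1.49, 3.09 and 2.05 CPM in gKO and 13.1, 9.26 and 8.26 CPM in gWT. Each gWT library was above each gKO library, and the log2 fold change of -2.21 (SE 0.38), a 4.62-fold lower mean, missed the threshold (edgeR adjusted p = 0.0520; without gKO 3, -2.18 and 0.00454). Tgfb2, an isoform that needs the coreceptor Tgfbr3 for high-affinity binding, had 4.92, 3.63 and 2.90 CPM in gKO and 13.5, 7.43 and 9.02 CPM in gWT. These groups did not overlap either; the log2 fold change was -1.38 (SE 0.35; edgeR adjusted p = 0.181; without gKO 3, -1.23 and 0.0474). Bmp4, another BMP, had 2.29, 2.54 and 2.26 CPM in gKO against 5.07, 3.77 and 4.51 CPM in gWT, again without overlap (-0.91, SE 0.38; edgeR adjusted p = 0.441). Tgfb3, the third TGF-beta isoform, had 3.84, 2.54 and 1.34 CPM in gKO against 5.83, 4.06 and 5.10 CPM in gWT, with gKO below gWT throughout (-0.95, SE 0.46; edgeR adjusted p = 0.516). Genes on the other strand cover 12.4% of its exons and 5.74% of those of Bmp6, and since the use of strand in counting is not given in the sources used here, such reads cannot be told apart.

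Bmp2, the BMP closest to Bmp4 in sequence, was the ligand with the opposite order. Its levels were 15.3, 20.2 and 15.3 CPM in gKO and 9.49, 9.60 and 4.98 CPM in gWT. Every gKO library was above every gWT library, with means of 16.9 ± 2.82 and 8.02 ± 2.64 CPM and a log2 fold change of 1.07 (SE 0.30; edgeR adjusted p = 0.223; without gKO 3, 1.13 and 0.0303). Inhba, the activin A subunit, had 11 counts in gKO 2, 10 in gWT 2 and 0 in the other 4 libraries.

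None of the 5 genes of latency was called by edgeR, while 3 were lower at an unadjusted p under 0.05 (Ltbp1, Ltbp3 and Ltbp4) and DESeq2 called Ltbp1 and Ltbp4 lower. Nrros, which holds latent TGF-beta1 on the microglial surface, had 281, 248 and 273 CPM in gKO and 252, 272 and 264 CPM in gWT. The groups overlapped (log2 fold change 0.03, SE 0.12; edgeR adjusted p = 0.958). Latent TGF-beta binding proteins tether the complex to matrix, and 3 of the 4 (Ltbp1, Ltbp3 and Ltbp4) lay below gWT in every gKO library. Ltbp4 (chr7:27305136-27337692), the most abundant of them, had 195, 199 and 80.8 CPM in gKO and 531, 406 and 432 CPM in gWT. All gKO libraries lay below all gWT libraries, gKO 3 lowest, and the means of 158 ± 67.2 and 456 ± 65.8 CPM gave a log2 fold change of -1.53 (SE 0.32; edgeR adjusted p = 0.109). Without gKO 3 the value was -1.22 (edgeR adjusted p = 4.66e-06), and it then was called. Ltbp1 had 1.32, 2.88 and 1.34 CPM in gKO and 7.78, 6.17 and 5.10 CPM in gWT, a difference without overlap (-1.78, SE 0.45; edgeR adjusted p = 0.178; without gKO 3, -1.61 and 0.0472). Ltbp3 had 26.7, 21.3 and 20.6 CPM in gKO and 40.7, 28.9 and 33.7 CPM in gWT, also without overlap (-0.59, SE 0.20; edgeR adjusted p = 0.319). Ltbp2 was near the limit of detection, with 0 to 15 counts in gKO and 5 to 18 in gWT.

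**Figure D2:**
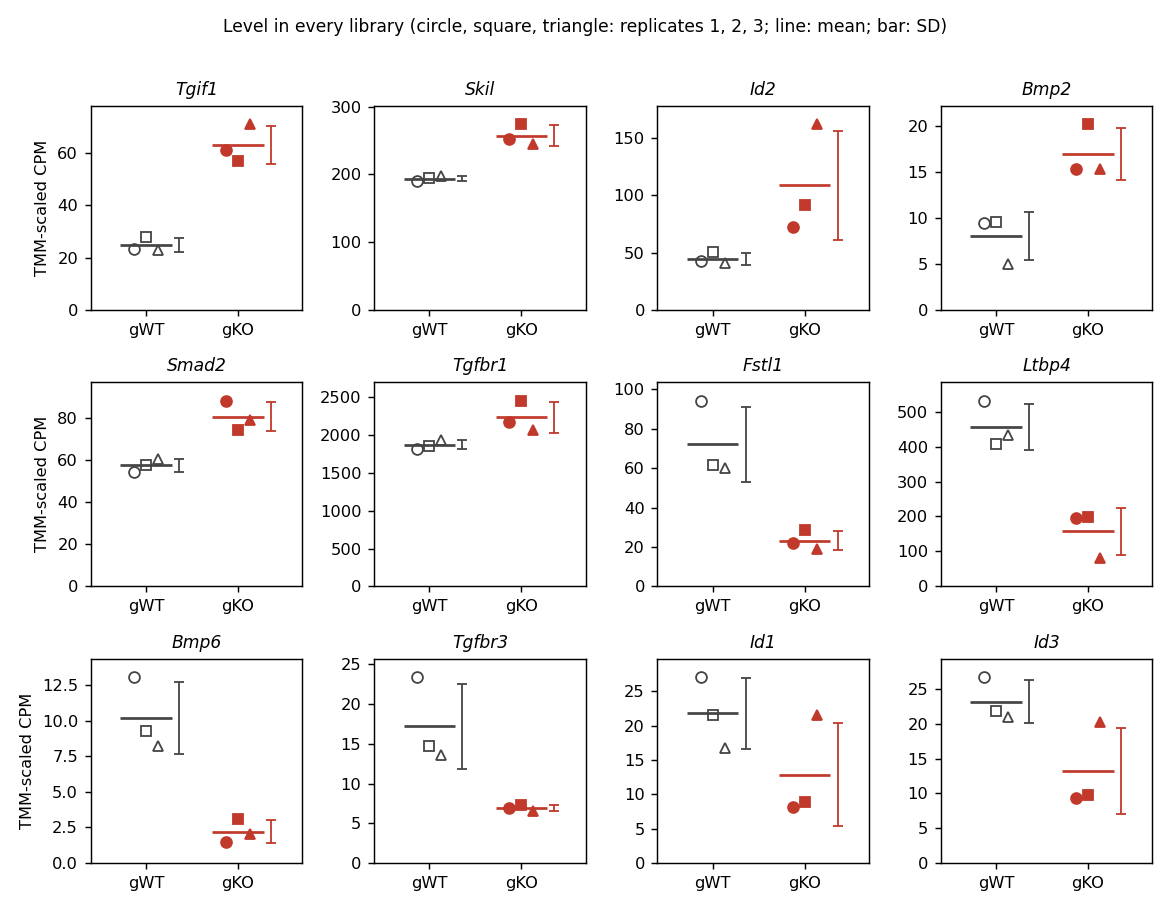
Levels of selected genes (vertical axes, TMM-scaled CPM from 0) in each of the 6 libraries, with a symbol per library, the group mean as a line and the SD as a bar. Tgif1 is higher and Fstl1, Bmp6 and Ltbp4 are lower in all 3 gKO libraries, while for Id1 the gKO 3 value lies within gWT.

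Of the 9 receptors edgeR called 0, with 1 higher (Acvr2a) and 2 lower (Tgfbr3 and Acvrl1) at an unadjusted p under 0.05, and DESeq2 called Tgfbr3 lower. The kinase and the ligand-binding receptor of TGF-beta were abundant. Tgfbr1 (chr4:47353222-47414931), the kinase that activates Smad2 and Smad3, was the most abundant of the 43 genes per kilobase, at 387 CPM per kb in gKO and 324 in gWT. Its levels were 2170, 2449 and 2065 CPM in gKO and 1815, 1857 and 1930 CPM in gWT. The groups did not overlap, the difference was small (log2 fold change 0.25, SE 0.12), and it was not called (edgeR adjusted p = 0.504; without gKO 3, 0.30 and 0.00727). Tgfbr2, which binds the ligand, had 682, 684 and 554 CPM in gKO and 599, 572 and 596 CPM in gWT, where gKO 3 was the lowest of all 6 (0.12, SE 0.13; edgeR adjusted p = 0.807; without gKO 3, 0.20 and 0.0466). Tgfbr3, or betaglycan, a coreceptor that presents TGF-beta2, had 6.93, 7.27 and 6.50 CPM in gKO and 23.4, 14.7 and 13.6 CPM in gWT. It was lower in every gKO library, by a log2 fold change of -1.32 (SE 0.27; edgeR adjusted p = 0.105; without gKO 3, -1.29 and 0.0122).

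Among the activin and BMP receptors, Acvrl1, the endothelial kinase for BMP9 and BMP10, had 43.2, 48.8 and 21.4 CPM in gKO and 82.7, 65.3 and 69.3 CPM in gWT. The groups did not overlap and gKO 3 was lowest (log2 fold change -0.94, SE 0.29; edgeR adjusted p = 0.274; without gKO 3, -0.67 and 0.00561). Acvr1b, the activin kinase, had 18.8, 26.5 and 7.21 CPM in gKO and 30.7, 30.7 and 36.5 CPM in gWT, without overlap (-0.90, SE 0.40; edgeR adjusted p = 0.469; without gKO 3, -0.54 and 0.0836). In the other direction, Acvr2a, a type II activin receptor, had 26.9, 23.6 and 26.5 CPM in gKO and 19.2, 20.5 and 19.1 CPM in gWT (0.39, SE 0.17; edgeR adjusted p = 0.447). Acvr1, a BMP kinase, differed little, at 68.6, 69.8 and 69.0 CPM in gKO and 61.7, 64.9 and 67.4 CPM in gWT, although the groups did not overlap (0.10, SE 0.12; edgeR adjusted p = 0.840). Bmpr1a and Bmpr2, the other BMP receptors, overlapped between the groups, with log2 fold changes of 0.06 and 0.11.

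None of the 6 SMAD transducers was called by edgeR; Smad2 was higher at an unadjusted p under 0.05, and DESeq2 called it higher. Smad2 (chr18:76241580-76310963), a TGF-beta transducer, had 88.1, 74.4 and 79.0 CPM in gKO and 54.2, 57.5 and 60.4 CPM in gWT. Every gKO library was above every gWT library (log2 fold change 0.49, SE 0.14; edgeR adjusted p = 0.212; without gKO 3, 0.49 and 0.0141). Its partner Smad3 had 147, 167 and 109 CPM in gKO and 142, 142 and 143 CPM in gWT, so that gKO 3 was below and the other gKO libraries above gWT. The log2 fold change of -0.01 (SE 0.17; edgeR adjusted p = 0.988) became 0.13 without gKO 3 (0.348). Smad4, shared by both branches, had 72.3, 68.4 and 72.8 CPM in gKO and 70.6, 61.3 and 66.4 CPM in gWT, with overlap (0.11; edgeR adjusted p = 0.828). Of the BMP transducers, Smad5 had 106, 94.2 and 89.2 CPM in gKO against 83.1, 86.5 and 87.8 CPM in gWT (0.17; edgeR adjusted p = 0.708), higher without overlap. Smad1 had 53.7, 54.9 and 78.5 CPM in gKO and 53.0, 56.9 and 54.6 CPM in gWT, so that gKO 3 alone stood above gWT, and its log2 fold change of 0.18 (edgeR adjusted p = 0.777) turned to -0.02 without gKO 3 (0.932). Smad9 was close to absent, with counts of 9, 0 and 5 in the gKO libraries and of 19, 12 and 17 in the gWT libraries.

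The corepressor Tgif1 (chr17:70844205-70853546), which recruits histone deacetylases to SMAD2 and SMAD3 complexes, was the gene with the largest increase. It had 61.2, 56.9 and 70.8 CPM in gKO and 23.2, 27.8 and 23.0 CPM in gWT. The lowest gKO library was above the highest gWT library, the means were 63.0 ± 7.16 and 24.7 ± 2.74 CPM (SD, n = 3 each), and the level rose 2.55-fold (log2 fold change 1.35, SE 0.16; edgeR adjusted p = 0.0212). GENCODE M21 also holds a pseudogene, Tgif1-ps, and reads could be shared with it. Skil, a corepressor that TGF-beta induces as feedback, had 253, 274 and 245 CPM in gKO and 190, 195 and 197 CPM in gWT. These groups did not overlap, with a log2 fold change of 0.41 (SE 0.12; edgeR adjusted p = 0.231; without gKO 3, 0.43 and 0.00161). Its paralogue Ski, which ranked 3 in level per kilobase in gWT, had 874, 856 and 532 CPM in gKO and 703, 695 and 690 CPM in gWT; gKO 3 was the lowest of all 6 and the other gKO libraries were the highest (0.11, SE 0.19; edgeR adjusted p = 0.887; without gKO 3, 0.30 and 0.00414). Tgif2, a paralogue of Tgif1, overlapped at 45.6, 51.4 and 40.4 CPM in gKO and 40.1, 46.0 and 42 CPM in gWT, and is uncertain since genes on the other strand cover 61.6% of its exons (0.10; edgeR adjusted p = 0.868; without gKO 3, 0.17 and 0.453).

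Smad7, the inhibitory SMAD that blocks Tgfbr1, had 144, 159 and 166 CPM in gKO and 134, 131 and 140 CPM in gWT, without overlap (log2 fold change 0.21, SE 0.12; edgeR adjusted p = 0.594). Smad6, the inhibitory SMAD of the BMP branch, had 25.9, 29.7 and 18.9 CPM in gKO and 33.6, 35 and 31.6 CPM in gWT, lower without overlap (-0.43, SE 0.20; edgeR adjusted p = 0.491; without gKO 3, -0.28 and 0.282). Pmepa1, a feedback inhibitor that sequesters SMADs, had 397, 399 and 376 CPM in gKO and 324, 359 and 360 CPM in gWT, higher without overlap (0.17; edgeR adjusted p = 0.674). Bambi, a decoy receptor, scattered within gKO from 2.0 to 9.61 CPM, around the 5.31 to 6.62 CPM of gWT (0.05, SE 0.51; edgeR adjusted p = 0.985; without gKO 3, -0.39 and 0.686). Smurf1, a ubiquitin ligase of SMADs and receptors, had 132, 134 and 73.2 CPM in gKO and 98.0, 106 and 110 CPM in gWT. Its gKO 3 level was the lowest of all 6 and the other gKO libraries were the highest (0.11; edgeR adjusted p = 0.912; without gKO 3, 0.33 and 0.0257). Smurf2, a related ligase, had a log2 fold change of 0.18 (edgeR adjusted p = 0.767). The activin antagonist Fst had 0 counts in each library, which allows up to 0.171 to 0.212 CPM (3 counts), for counting error only.

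Fstl1 (chr16:37776873-37836514), a secreted glycoprotein of mesenchymal cells that antagonises BMP signalling, had 21.9, 28.7 and 19.2 CPM in gKO and 94.2, 61.7 and 60.3 CPM in gWT. All 3 gKO libraries lay below all 3 gWT libraries, and gWT 1 was the highest. Means of 23.3 ± 4.89 and 72.1 ± 19.2 CPM (SD, n = 3 each) differed by a log2 fold change of -1.63 (SE 0.24; edgeR adjusted p = 0.0312), 3.10-fold lower in gKO. The calls of Tgif1 and Fstl1 both needed all 3 gWT libraries, gKO 1 and gKO 2. Without gKO 1 their edgeR adjusted p values were 0.0814 and 0.131, and without gKO 2 they were 0.0703 and 0.0800. Leaving out gWT 1, gWT 2 or gWT 3 gave 0.200, 0.127 and 0.178 for Tgif1 and 0.208, 0.157 and 0.159 for Fstl1. Without gKO 3 both were called, at 6.89e-05 and 0.000772. Over all genes, leaving out 1 library gave 0 to 551 higher and 0 to 528 lower calls, with the highest counts without gKO 3.

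The Id genes, which encode inhibitors of basic helix-loop-helix factors and respond to BMP, did not move together. Of the 4 targets edgeR called 0; at an unadjusted p under 0.05 Id2 was higher and Id3 lower, and DESeq2 called Id2 higher. Id2 (chr12:25093799-25097140) had 72.2, 92.0 and 162 CPM in gKO and 42.4, 50.4 and 41.2 CPM in gWT. All gKO libraries were above all gWT libraries and gKO 3 was highest (log2 fold change 1.28, SE 0.28; edgeR adjusted p = 0.128; without gKO 3, 0.87 and 0.00102). Id3 (chr4:136143497-136145755) had 9.39, 9.81 and 20.3 CPM in gKO and 26.7, 21.8 and 21.0 CPM in gWT, lower without overlap (-0.82, SE 0.32; edgeR adjusted p = 0.403; without gKO 3, -1.28 and 0.00188). Id1 had 8.19, 8.85 and 21.6 CPM in gKO and 27.0, 21.6 and 16.8 CPM in gWT. Here gKO 3 fell among the gWT libraries while gKO 1 and gKO 2 were below them (-0.76, SE 0.39; edgeR adjusted p = 0.542; without gKO 3, -1.37 and 0.00342). In gKO 3 all 3 Id genes had their highest gKO value. Tgfbi, a matrix protein induced by TGF-beta, had a log2 fold change of -0.19 (edgeR adjusted p = 0.684).

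RefSeq's GRCm38.p6 promoter windows (250 bases before to 50 after a start site) were found for 31 of the 43 genes, 41 windows in all. They were searched on both strands for GTCTAGAC, the palindrome bound by SMAD3 and SMAD4, and for GGCGCC, a GC-rich element reported for SMAD1 and SMAD5. The palindrome was in the window of Smad6 alone, against 0.215% of all 32544 windows, and the GC-rich element in 13 of the 41 windows, from 11 genes, against 11.9% of all windows. Overlapping windows of Ltbp4, and of Smad5, hold the same match. The 13 windows were 59.3% (Bmpr2) to 85.3% (Ski) G and C. No comparison with windows of like G and C content was made, so the shares do not show an excess. For Id2 and Id3, which lay on opposite sides of gWT, the bases before the RefSeq start site are shown. These bases lie within the GENCODE M21 bounds of the genes given above. The palindrome of Smad6 is also shown. Motifs are in capitals, and each stretch is on its gene's strand.
Id2 chr12:25096093-25096342 (-): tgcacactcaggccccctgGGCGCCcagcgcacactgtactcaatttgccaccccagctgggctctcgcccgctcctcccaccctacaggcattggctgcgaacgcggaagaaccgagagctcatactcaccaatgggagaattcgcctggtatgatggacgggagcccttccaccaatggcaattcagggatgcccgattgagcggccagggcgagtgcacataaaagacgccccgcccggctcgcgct
Id3 chr4:136143572-136143821 (+): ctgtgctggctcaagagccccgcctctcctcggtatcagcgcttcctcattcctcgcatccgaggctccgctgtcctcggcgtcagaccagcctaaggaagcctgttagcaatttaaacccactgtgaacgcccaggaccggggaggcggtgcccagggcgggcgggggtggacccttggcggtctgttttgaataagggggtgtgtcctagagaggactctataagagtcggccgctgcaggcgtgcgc
Smad6 chr9:64022045-64022074 (-): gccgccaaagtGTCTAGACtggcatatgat
Id2 holds 1 GGCGCC in these letters and Id3 does not. A match is a description of the letters, and no match says only that they are not in this window. The AP-1 element TGANTCA was in 1 of the 41 windows, that of Ltbp3, against 7.79% of all windows.

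Of 73 further pathway symbols, 72 were in the table and 51 were tested. The symbol not found, Ccn2, is another name of Ctgf, which was tested. Klf10, an early TGF-beta target that represses Smad7, was the only gene called. It had 68.0, 72.2 and 79.5 CPM in gKO and 34.8, 36.3 and 30.3 CPM in gWT, without overlap, and rose by a log2 fold change of 1.12 (SE 0.15; edgeR adjusted p = 0.0221). Leaving out gKO 1, gKO 2 or any gWT library left 0 genes of this list called, and leaving out gKO 3 gave 11 higher and 5 lower. Calls over all genes ran from 0 to 551 higher and 0 to 528 lower when 1 library was left out. Of this list DESeq2 called 7 higher and 2 lower, where it called 3.54% of all genes. The median of the list was -0.11. The groups lay apart in 22 of the 51 (43.1%), 11 in each direction, against 21.3% of all genes. At an unadjusted p under 0.05, where 10.9% of all genes passed, 9 of the 51 were higher and 8 lower. Of these, Gdf15, a stress-induced ligand, had means of 29.4 ± 9.94 CPM in gKO and 10.1 ± 2.09 CPM in gWT (1.53; edgeR adjusted p = 0.0796; without gKO 3, 1.22 and 0.00471). Tsc22d1, a TGF-beta-stimulated gene, had 68.7 ± 20.3 and 129 ± 10.9 CPM (-0.91; edgeR adjusted p = 0.142; without gKO 3, -1.19 and 4.66e-06). The cell cycle inhibitor Cdkn1a (0.58), the coactivator Cited2 (0.61), the TGF-beta activator Thbs1 (0.75) and the microfibril gene Fbn1 (-1.24) had edgeR adjusted p values from 0.164 to 0.197. Without gKO 3 their log2 fold changes were 0.55, 0.47, 0.92 and -1.05, with edgeR adjusted p values from 0.000224 to 0.0317. In that setting 7.81% of all genes were called.

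Of 21 symbols of resting microglial genes reported to depend on TGF-beta, 20 were found and tested. The symbol not found, Gpr56, is another name of Adgrg1, which was tested. Slc2a5, a fructose transporter, was called: it had 247, 229 and 233 CPM in gKO and 129, 125 and 145 CPM in gWT, without overlap, and rose by a log2 fold change of 0.83 (SE 0.12; edgeR adjusted p = 0.0312). Without gKO 1, gKO 2 or any gWT library 0 genes of this list were called, and without gKO 3 there were 6 higher and 3 lower. Calls over all genes ran from 0 to 551 higher and 0 to 528 lower when 1 library was left out. With all 6 libraries edgeR called no gene of this list lower. DESeq2 called 3 higher and 0 lower, where it called 3.54% of all genes. At an unadjusted p under 0.05 there were 3 higher and 2 lower, where 10.9% of all genes passed. The groups lay apart in 6 of 20 (30.0%), against 21.3% of all genes. Olfml3 (-0.41) and Fcrls (-0.31) lay below gWT, and Mef2a (0.39) and Rhob (0.39) above it, with edgeR adjusted p values from 0.231 to 0.386. Without gKO 3 their log2 fold changes were -0.58, -0.37, 0.45 and 0.37, with edgeR adjusted p values from 1.48e-05 to 0.000825. In that setting 7.81% of all genes were called. With all 6 libraries the median of the list was 0.04, with 10 genes above 0 and 10 below.

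Summed markers of several non-microglial cell types were also lower in gKO. The 12 fibroblast markers summed to 277, 284 and 271 CPM in gKO and to 750, 516 and 547 CPM in gWT, and 6 of the 12 were called lower, Col1a1, Col1a2 and Col3a1 among them. The 12 endothelial markers summed to 566 to 683 CPM in gKO and 1003 to 1247 CPM in gWT, with Cldn5 called lower. The 11 mural markers summed to 115 to 181 and 280 to 389 CPM, with Acta2 called lower, and the 9 astrocyte markers to 258 to 312 and 368 to 414 CPM. No marker of any of these lists was at 0 in all libraries. The library gWT 1 had the highest sum of each of these 4 lists. Among the gWT libraries it was also highest for ependyma and choroid plexus, neuron, monocyte, oligodendrocyte and border macrophage markers. For microglial, neutrophil and immediate early markers it was the lowest of them. It had the highest gWT level of all 10 pathway genes lower at an unadjusted p under 0.05, and of 19 of all 41 tested. These 10 and the 4 other genes that lay below gWT without overlap had a median gWT level of 4.42 CPM per kb, against 19.6 for the 11 that lay above. The part of these cells in the lower levels of Fstl1, Bmp6, Ltbp4, Tgfbr3 and Acvrl1 was not tested, and in bulk samples fewer cells of a type and less RNA per cell cannot be told apart.

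**Figure D3:**
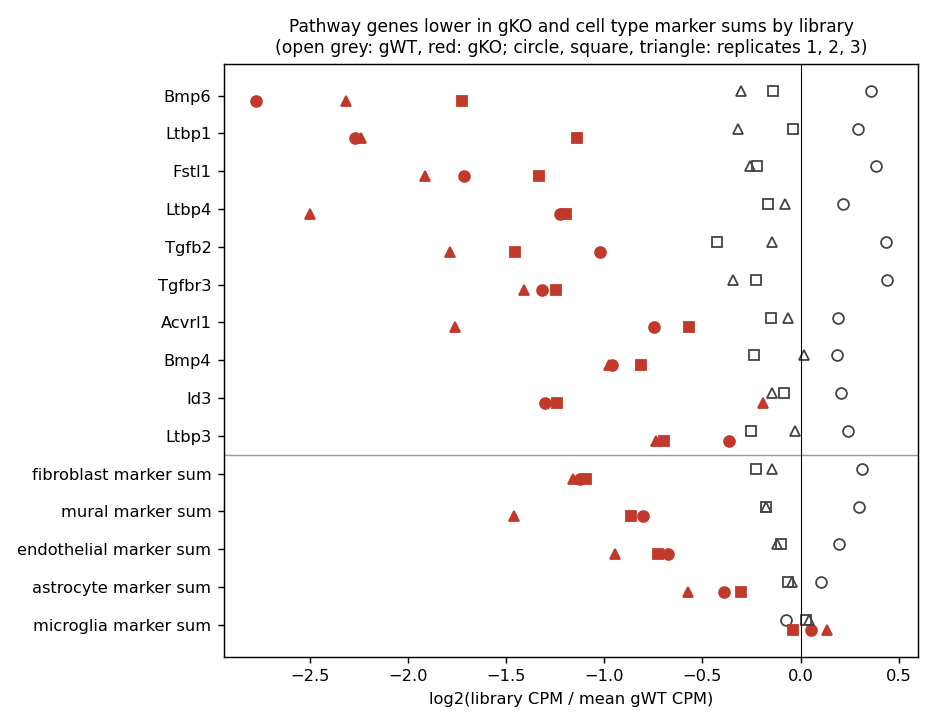
Levels in each library relative to the gWT mean (log2 scale) for pathway genes that were lower in gKO, above the summed markers of 5 cell types. The 10 genes and the fibroblast, mural, endothelial and astrocyte sums are lower in the 3 gKO libraries and highest in gWT 1, and the microglial sum overlaps between the groups.

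Other lists differed between the groups beside the genes that were higher. The 20 immediate early genes, which handling of cells can induce, summed to 25363 to 26788 CPM in gKO and 15128 to 16941 CPM in gWT, and 11 of the 20 were called higher. The 10 neutrophil markers summed to 898 to 1319 and 573 to 684 CPM, and 2 of them, Ltf and Mmp9, were called higher. Of the 8 monocyte markers 7 had a log2 fold change above 0 (median 0.95), and Chil3 and Hp were called higher. Their sum was nevertheless lower in gKO, at 344 to 501 CPM against 534 to 753 CPM, and Fn1 made up most of the mean sum in each group (277 ± 120 and 552 ± 117 CPM; -0.996, edgeR adjusted p = 0.319). The part of these in the levels of Tgif1, Id2, Skil and Klf10 was not tested.

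The count of calls depended on gKO 3. Without it, 18 of the 41 genes were called, 9 higher and 9 lower, where 7.81% of all 13814 genes tested were called, 3.99% higher and 3.82% lower. The higher genes were Tgif1, Id2, Bmp2, Smad2, Skil, Tgfbr1, Ski, Smurf1 and Tgfbr2. The lower genes were Ltbp4, Fstl1, Id3, Id1, Bmp6, Acvrl1, Tgfbr3, Ltbp1 and Tgfb2. Of the 18, 13 had an unadjusted p under 0.05 with all 6 libraries. In gKO 3 the levels of Ski, Smurf1 and Tgfbr2, whose longest transcripts have 5522, 5420 and 8092 bases, were below both other gKO libraries, and those of Id1, Id2 and Id3, with 1160, 1969 and 1278 bases, were above them. With each library's trend with transcript length removed, 2 genes were called higher, Tgif1 and Id2, and 4 lower, Bmp6, Fstl1, Ltbp4 and Id3, where 1.91% of all genes were called, 0.968% higher and 0.938% lower. With weights that lower the influence of a deviating library (limma-voom), 5 were called higher and 6 lower, where 3.08% of all genes were called, 1.95% higher and 1.13% lower.

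**Figure D4:**
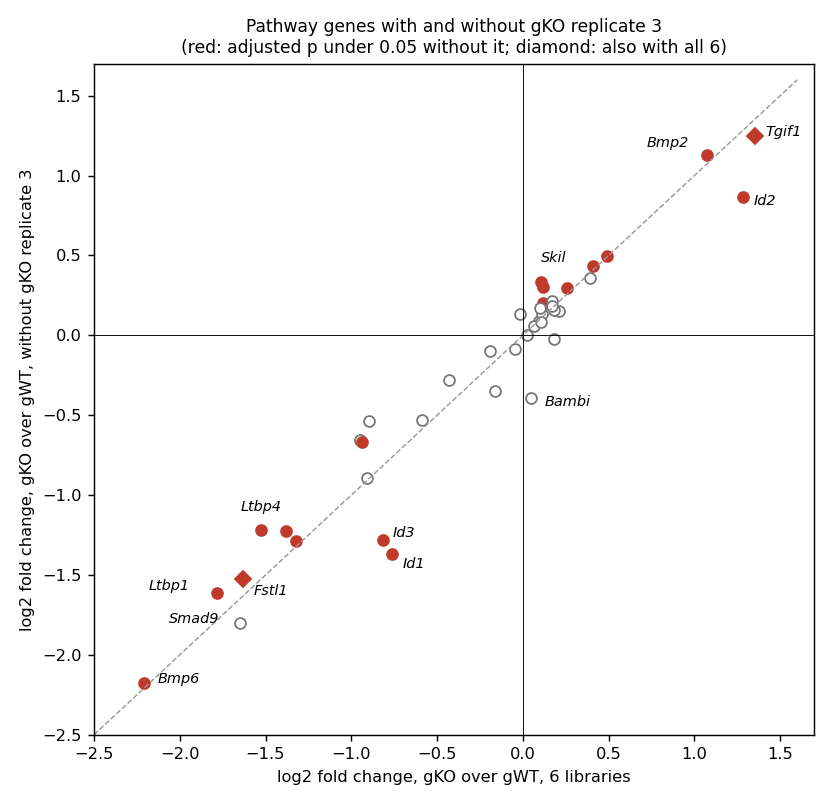
Log2 fold change (gKO over gWT) of the 41 tested genes with all 6 libraries (horizontal axis) and without gKO 3 (vertical axis); the diagonal marks equal values. Id1 and Id3 move further below 0 without gKO 3 (-1.37 and -1.28), Id2 moves closer to it (0.87), and Tgif1 and Fstl1 stay near the diagonal.

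The choice of count model mattered as well. DESeq2 called 5 of the 41 genes higher (Tgif1, Id2, Bmp2, Smad2 and Skil) and 6 lower (Fstl1, Bmp6, Ltbp4, Tgfbr3, Ltbp1 and Tgfb2), where it called 3.54% of all genes, 1.63% higher and 1.92% lower. The authors' deposited table of changed genes lists 75 higher genes, among them Tgif1 (log2 fold change 1.35, adjusted p = 1.43e-09) and Id2 (1.29, 0.00162). The authors' deposited table also lists 201 lower genes, among them Fstl1, Bmp6, Ltbp4, Tgfbr3, Ltbp1 and Tgfb2.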

How the data were processed

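Microglial RNA was sequenced in 3 gKO and 3 gWT libraries. The deposited table holds expected counts per gene symbol for these libraries; RSEM, STAR 2.7.9a, DESeq2 and the builds GRCm38 and mm10 appear, per the submitters' processing notes, without a role. For annotation and strand use, nothing is given in the sources used here. The authors' deposited tables of changed genes give, per the file headers, a mean signal (normalized counts), a log2 fold change, its standard error and test statistic (a score), and p-values. The count table had 0 columns of no sample.

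Counts, once rounded to integers, entered edgeR 4.0.16 under R 4.3.3 (TMM scaling, filterByExpr, robust quasi-likelihood test, genotype as the only term), with Benjamini-Hochberg adjustment over the 13403 genes kept and a threshold of 0.05. Standard errors were derived from the log2 fold change and its F statistic. Levels are TMM-scaled CPM, and levels per kb divide the CPM by the longest GENCODE M21 transcript. Of the 24411 symbols, 23365 matched GENCODE by name, 669 by synonym and 377 did not match; all 43 pathway genes matched by name. Alternatives were DESeq2 1.42.0, voom in limma 3.58.1 (plain or sample-weighted), scaling by RLE or upper quartile, other filters, a replicate block, each library left out, and an offset for transcript length. The script was tested on simulated data. Counts in these libraries differed between replicates by more than sampling noise (chi-square per degree of freedom from 6.49).

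The 43 genes and all gene lists were chosen with earlier results of these data known. Genes named with the value in every library were those called, those with an unadjusted p under 0.05, those whose groups did not overlap, and fixed anchors such as Tgfb1, Tgfbr1, Smad3 and Nrros; of the other lists, called genes and up to 6 with the smallest p. Replicate numbers were not taken to pair libraries: correlations of deviations between same-numbered libraries were 0.05, -0.05 and 0.02. No separate cell type estimate was made.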

Additional observations from a re-analysis of the deposited data

How the results depend on the processing

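RLE and upper-quartile scaling, plain limma-voom and a filter of 1 CPM in 3 libraries kept the number of calls within 1.5 times. In the order higher, lower, the calls over all genes (53, 31), the 43 pathway genes (1, 1), the further pathway genes (1, 0) and the TGF-beta-dependent microglial genes (1, 0) became the following. DESeq2 gave 218 and 257, 5 and 6, 7 and 2, and 3 higher. Sample weights gave 261 and 152, 5 and 6, 8 and 2, and 3 and 2. Removing the length trend gave 129 and 125, 2 and 4, 4 and 1, and 2 higher. No filter gave 47 lower genes in all, 2 lower pathway genes (Bmp6 added) and 2 higher further genes. The replicate block gave 11 and 7 genes in all and 0 calls in each list; the block's adjusted p (edgeR) was 0.0603 for both Tgif1 and Fstl1, the numbers share no stated source, and not every library correlated best with its own number. Leaving out 1 library gave 0 to 551 and 0 to 528 genes in all, 0 to 9 pathway genes in each direction, 0 to 11 and 0 to 5 further genes, and 0 to 6 and 0 to 3 microglial genes. The highest counts came without gKO 3, and the cause was not tested.

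The median of 0.05 became 0.0164 with upper-quartile scaling and 0.0169 with sample weights, and ran from -0.00773 to 0.0558 when 1 library was left out. Signs reversed only for genes near 0 or scattered. Tgfb1 ran from -0.0842 to 0.00118 when 1 library was left out, the highest without gKO 2. Nrros was -0.00986 with upper-quartile scaling, ran from -0.0129 (without gKO 1) to 0.0766 with 1 library left out, and was -0.00463 without gWT 1. Smad3 was 0.10 with sample weights, 0.0223 with the length trend removed, and ran from -0.154 to 0.131 (without gKO 3) with 1 library left out. Bambi was -0.30 with voom, -0.60 with sample weights, -0.17 with the replicate block, and ran from -0.392 (without gKO 3) to 0.474 (without gKO 1), with -0.09 without gKO 2 and -0.05 without gWT 2. The cause was not tested. Of the 33 genes followed, Bambi, Tgfb1, Nrros and Smad3 were the only ones whose sign changed under these 15 alternatives. Smad1, not among the 33, turned from 0.18 to -0.02 without gKO 3. Ltbp2, Smad9, Inhba and Fst had too few counts for a direction to be read.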
